A study of Homo sapiens with 4 samples.

Results

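The genes described here are 50 genes of DNA replication and the cell cycle, examined in ATAC-seq peak lists of human pancreatic progenitors grown with or without the bromodomain inhibitor I-BET151. The list was given by name and its rule used no measured value, but it was chosen with earlier results of these data known. Every merged peak region from 5 kb before the start to 5 kb after the end of each gene (GENCODE release 44) was taken, which gave 201 regions of the 96884 that lie at the 20007 protein-coding genes. By role, 15 members license replication origins, 10 fire them or work at the fork, 3 supply nucleotides, 12 control the passage from G1 to S and 10 act in G2 and mitosis.

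In ATAC-seq the Tn5 transposase cuts and tags DNA where chromatin is open, and a peak marks such a site. All 4 libraries came from pancreatic progenitors that had been differentiated from 1 established human embryonic stem cell line, MEL1, which the study's methods name as MEL1 INS GFP/W (a GFP reporter at 1 INS allele), and kept in EF6 medium, which is DMEM with B27, EGF, bFGF and the TGFβ inhibitor 616452. Of the libraries, 2 were made from cells given the vehicle DMSO for 7 days and 2 from cells given 1 μM I-BET151, a BET bromodomain inhibitor, for 7 days. The labels do not say whether the 2 libraries of a condition came from separate cultures, so each p-value measures only the spread between these libraries, and results from 1 line hold for that line. In bulk cells, fewer cells with an open site and less opening per cell cannot be told apart.

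In G1 the origin recognition complex, CDC6 and CDT1 load the MCM2 to MCM7 helicase ring onto DNA, and kinases later fire these licensed origins in S phase. Cyclin D with CDK4 or CDK6 phosphorylates RB1, which frees E2F factors to switch on the genes of cyclin E, the MCM proteins and the nucleotide enzymes, while cyclin B with CDK1 drives mitosis. Promoters of the S-phase genes often carry E2F sites, and those of the mitotic genes often carry CCAAT boxes and a cell cycle homology region (CHR), which the DREAM and MuvB complexes bind.

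The lists held between 38295 and 111324 peaks, and the background of each list corresponded to 38.7 and 36.6 M reads with DMSO and 12.5 and 16.0 M reads with I-BET151. The shortest DMSO list was that of replicate 2 and the longest of all was that of I-BET151 replicate 2, so counts of called regions follow the lists as well as the treatment. At the members, 110 and 81 regions were called with DMSO and 110 and 161 with I-BET151. Of the pancreatic progenitor markers, 6 of 8 had a promoter region in all 4 lists, PDX1 had one only in both I-BET151 lists, and ONECUT1 had one in 3 lists. No promoter region was called in any list at the pluripotency genes POU5F1 and NANOG, at the blood cell genes PTPRC and CD3E, or at the endocrine genes NEUROG3 and NKX2-2. NEUROD1 had a promoter region in 1 list. Of 3 fibroblast markers, COL1A1 had a promoter region in all 4 lists and COL1A2 in both I-BET151 lists only, while THY1 had none. The COL1A1 percentiles, explained below, were 5.81 and 9.26 with DMSO and 38.2 and 49.4 with I-BET151, without overlap. The part of such cells in the values of the members was not tested.

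Each peak carries a fold enrichment, the pileup of reads at its summit plus 1 over the local background plus 1. Since depth and list length differ, a region was given its percentile by fold among the 25627 regions called in all 4 lists, within each library. A percentile of 90 means that 90% of these shared regions had a lower fold in that library. A promoter region is the merged region nearest to the start of the canonical transcript, within 1 kb of it. Ranks were tested with limma over all 25627 regions, with Benjamini-Hochberg adjustment over all of them and a threshold of 0.05.

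All 50 members had a promoter region in at least 1 list, and 44 of them (88%) had one in all 4 lists, beside 52.7% of the 20007 protein-coding genes. The members' promoters lay high among the shared regions under both conditions, with a median percentile of 75.4 with DMSO and 74.2 with I-BET151, beside 63.9 and 61.6 over the 9324 promoter regions of all genes in all 4 lists. Between conditions the median change over the 44 promoters was 0.747 percentile points, and 22 promoters were higher and 22 lower with I-BET151. Over all promoters the median change was -1.38 points. The limma test called 3 member promoters up (E2F1, MCM2 and PLK1) and 1 down (ORC6), or 6.82% and 2.27% of 44, beside 2.84% and 0.955% of all promoters and 3.41% and 1.96% of all shared regions. The libraries of the 2 conditions did not overlap for 13 promoters that were higher and 12 that were lower with I-BET151 (29.5% and 27.3%), beside 25.3% and 31.6% of all promoters, so these counts were near the background.

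In 98.8% of the shared regions the mean log2 fold of the I-BET151 libraries exceeded that of the DMSO libraries, with a median log2 difference of 0.83 over the 25627 regions and 0.86 over the 44 promoters of the members. Only ORC6 had a lower mean fold. The pileup per M reads showed a shift of 1.90 on the log2 scale over all shared regions, in the direction of the shallower I-BET151 libraries. It was 2.07 over all promoters and 2.17 over the members' promoters. Changes are therefore given as ranks, beside the pileup per M reads after the median of each library was subtracted (centred pileup). Of the 22 promoters that were lower by the rank of fold, 16 were higher by centred pileup. The direction of these 16 thus depends on the measure. Of the 22 that were higher by rank, 20 were also higher by centred pileup. The centring used all shared regions, and the median centred change was 0.14 over all promoters and 0.25 over the members' promoters. A positive value below 0.14 is thus smaller than that of the median promoter. The matching share over all promoters was not counted.

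**Figure D1:**
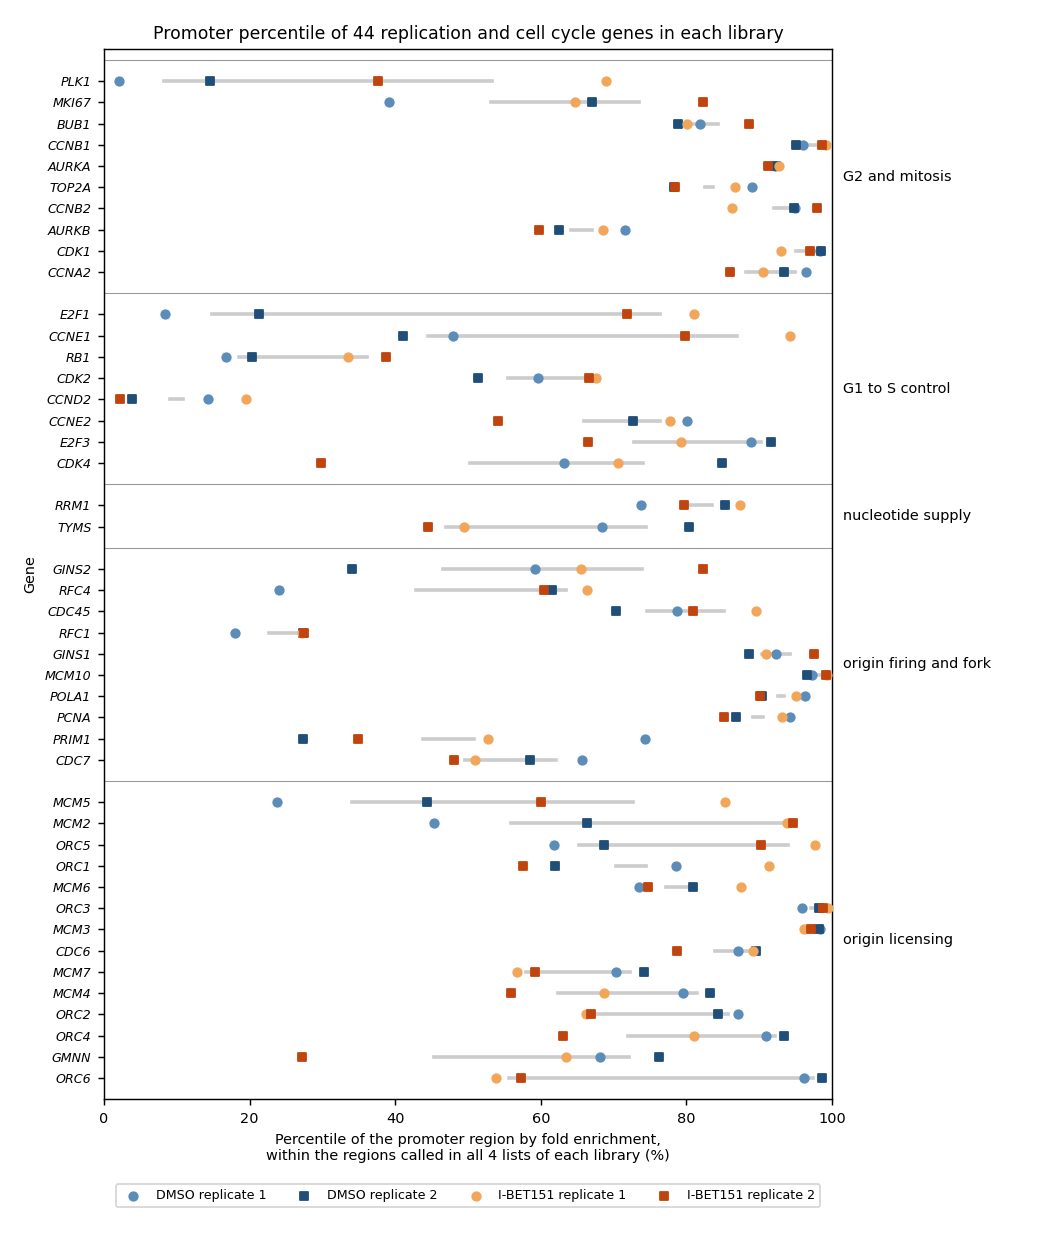
Percentile by fold enrichment of the promoter regions of the 44 members called in all 4 lists (horizontal axis, %, among the 25627 shared regions of each library), 1 row per gene, grouped by role and ordered within a role by change. Points are the 4 libraries and grey bars join the 2 condition means. E2F1, PLK1, MCM2, MCM5 and CCNE1 had both I-BET151 points to the right of both DMSO points, and ORC6 had both to the left.

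Promoter sequences were taken from RefSeq (GRCh38.p14, 250 bases before to 50 after the start) for the 42 members with an entry whose start lies within 1 kb of the canonical start. MCM4, MCM5, CCND1, CCND2, CCNE2, CDK2, RB1 and AURKA had none. An exact search on both strands for E2F words (the word TTCCCGC, the word TTCGCGC, the word TTGCCGC and the word TTGGCGC) found 22 of the 42 (52.4%), beside 17.9% of the 14942 promoters of all protein-coding genes. CHR words (TTTGAA and also TTCGAA) were in 21.4% of members and 12.8% of all, and the CCAAT box (CCAAT) in 71.4% and 36.8%. The words can overlap each other. The roles differed in which words they held: E2F words were in 7 of 10 firing and fork genes and 8 of 13 licensing genes, CHR words in 6 of 9 genes of G2 and mitosis, and CCAAT in all 9 of these. Median GC content was 63.3% over the members and 64% over all, and the median number of CG pairs in the 300 bases was 28.5 and 24. Each of the E2F words holds a CG pair, and the part of base composition in their share was not tested. A match is a description of letters and not a bound site.

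The following stretches lie upstream of the start and outside annotated exons, 5′ to 3′ on the gene's strand, with E2F, CHR and CCAAT words in capitals. E2F1, MCM2 and ORC6 are shown because they passed the test, CCNE1 for its large change without passing, E2F2 and CDT1 because they were called in both I-BET151 lists only, and PCNA for comparison. PLK1, which also passed, is shown further on at its CHR. E2F1 is chr20:33686386-33686535 (minus strand), CCNE1 is chr19:29811841-29811990 (plus), MCM2 is chr3:127598268-127598409 (plus), ORC6 is chr16:46689519-46689642 (plus), E2F2 is chr1:23531234-23531383 (minus), CDT1 is chr16:88803639-88803788 (plus) and PCNA is chr20:5119959-5120108 (minus).
E2F1: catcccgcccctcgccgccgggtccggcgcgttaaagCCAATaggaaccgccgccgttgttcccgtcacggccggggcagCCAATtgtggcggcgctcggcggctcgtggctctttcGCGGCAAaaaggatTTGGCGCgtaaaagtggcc
CCNE1: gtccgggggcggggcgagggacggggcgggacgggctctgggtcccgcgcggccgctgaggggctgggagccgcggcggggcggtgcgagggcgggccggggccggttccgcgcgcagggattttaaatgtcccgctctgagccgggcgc
MCM2: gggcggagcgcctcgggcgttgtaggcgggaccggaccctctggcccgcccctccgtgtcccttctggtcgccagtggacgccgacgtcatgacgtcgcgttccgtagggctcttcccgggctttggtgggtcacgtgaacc
ORC6: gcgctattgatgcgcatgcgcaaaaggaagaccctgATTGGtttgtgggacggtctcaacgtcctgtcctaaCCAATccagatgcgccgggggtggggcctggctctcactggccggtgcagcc
E2F2: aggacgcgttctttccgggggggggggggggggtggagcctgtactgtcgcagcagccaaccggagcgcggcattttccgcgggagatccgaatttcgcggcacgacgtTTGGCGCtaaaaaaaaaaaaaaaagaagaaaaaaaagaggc
CDT1: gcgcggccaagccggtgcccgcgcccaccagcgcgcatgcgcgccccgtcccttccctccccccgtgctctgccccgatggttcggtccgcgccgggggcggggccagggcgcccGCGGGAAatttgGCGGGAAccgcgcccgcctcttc
PCNA: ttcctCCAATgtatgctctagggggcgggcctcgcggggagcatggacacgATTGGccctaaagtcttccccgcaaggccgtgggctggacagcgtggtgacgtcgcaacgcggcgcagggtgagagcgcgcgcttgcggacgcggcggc
E2F1 held 2 E2F words close to its start, E2F2 held 1 and CDT1 held 2, whereas the CCNE1 stretch held none of the words. MCM2 held E2F words only 4 and 7 bases after its start, beyond the stretch shown.

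Around the CHR, 3 genes of G2 and mitosis had the word TTTGAA at the same distance, with its first base 29 bases before the start. These 30-base stretches are MKI67 (chr10:128126435-128126464, minus strand), CCNB2 (chr15:59105105-59105134, plus) and PLK1 (chr16:23678848-23678877, plus), with the CHR and any CCAAT word in capitals. In CDK1 (chr10:60778397-60778426, plus) a CHR word followed a CCAAT word on the other strand.
MKI67: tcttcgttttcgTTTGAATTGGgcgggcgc
CCNB2: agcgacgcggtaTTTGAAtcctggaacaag
PLK1: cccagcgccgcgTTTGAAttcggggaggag
CDK1: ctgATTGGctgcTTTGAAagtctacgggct
The 20 tested members with an E2F word had a median change of 2.73 points and the 17 without one of -1.30 points, and the 9 with a CHR word had 3.94 points beside -1.02 in the 28 without, all small beside the range of -41.9 to 61.6 points between genes.

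Among the origin licensing genes, 14 of 15 had a promoter region in all 4 lists, with 1 up, 1 down and 12 not called, and a median change of -3.01 points. MCM2, a subunit of the replicative helicase, had a promoter region at chr3:127598078-127598816 with its summit 38 bases before the start. Its fold was 4.93 and 5.35 with DMSO and 14.0 and 16.2 with I-BET151. Its percentile rose from 45.4 and 66.4 (mean 55.9 ± 14.8, SD, n = 2) to 93.8 and 94.6 (94.2 ± 0.611), a gain of 38.3 points (limma adjusted p = 0.045). Both I-BET151 libraries stood above both DMSO libraries. MCM5, another helicase subunit, differed by a similar size, from 23.7 and 44.4 to 85.3 and 60.1 (38.6 points), and did not pass (limma adjusted p = 0.12). ORC5, a subunit of the origin recognition complex, differed by 28.7 points, from 61.8 and 68.7 to 97.7 and 90.2, and did not pass either (limma adjusted p = 0.074). The ranges of the 2 conditions did not overlap for either gene. The other helicase subunits did not pass, and the changes of MCM3, MCM4, MCM6 and MCM7 were -1.63, -19.1, 3.94 and -14.3 points.

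ORC6, the smallest subunit of the origin recognition complex, went the other way. Its promoter region at chr16:46688473-46690323 was near the top of both DMSO libraries, with percentiles of 96.2 and 98.6 and folds of 9.54 and 11.1. With I-BET151 the folds were 8.67 and 10.7, while most shared regions had a higher fold, and the percentiles were 53.9 and 57.2. By rank it fell by 41.9 points (limma adjusted p = 0.017). By centred pileup its change was -0.27 on the log2 scale, which did not pass (limma adjusted p = 0.51), while the uncentred pileup per M reads was higher with I-BET151, as at all 44 promoters. The region also holds the start of VPS35, which is transcribed the other way, and openness cannot be assigned to either gene. Of the 14 licensing promoters, 6 held the start of another protein-coding gene (42.9%), beside 9 of the 44 (20.5%) over all roles and 11.5% of all promoters. GMNN, which encodes the CDT1 inhibitor geminin, had percentiles of 68.1 and 76.2 with DMSO and 63.5 and 27.2 with I-BET151, without overlap and without passing (limma adjusted p = 0.29), and by centred pileup it was higher (0.26 on the log2 scale). CDT1, the licensing factor itself, had a promoter region only in both I-BET151 lists (chr16:88803439-88803924), with folds of 4.44 and 4.12 from pileups of 14 and 17 reads.

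**Figure D2:**
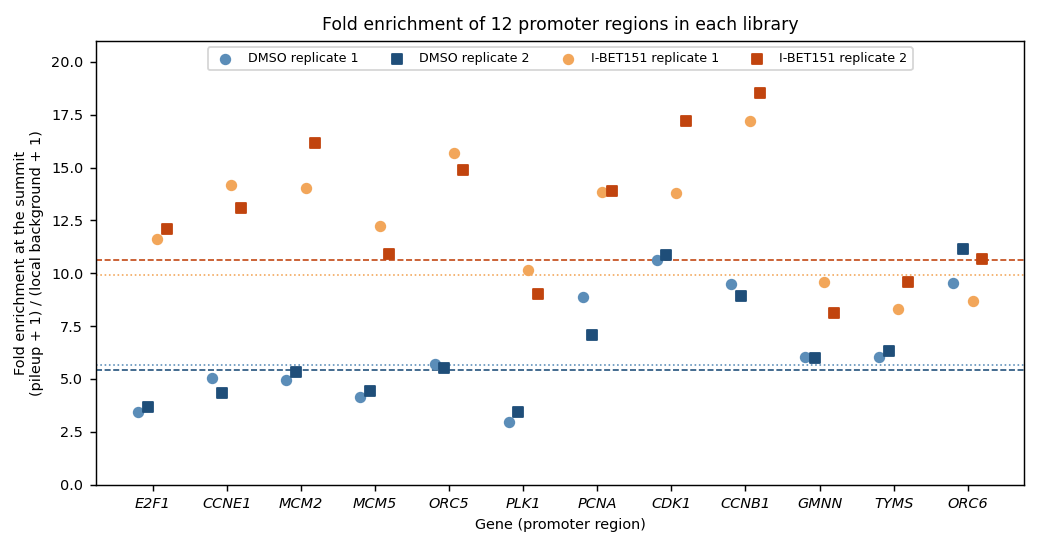
Fold enrichment (vertical axis, from 0) of 12 promoter regions in each of the 4 libraries, with lines at the median of the 9324 promoter regions in the same library (dotted for replicate 1, dashed for replicate 2). E2F1 and PLK1 lay below the DMSO lines, and E2F1 lay above the I-BET151 lines, whereas ORC6 lay far above the DMSO lines and near those of I-BET151.

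All 10 genes of origin firing and the fork had a promoter region in all 4 lists, and none passed the test, with a median change of 3.07 points. PCNA, the sliding clamp that holds DNA polymerase on its template, had promoter percentiles of 94.2 and 86.8 with DMSO and 93.2 and 85.2 with I-BET151, a change of -1.30 points that was small beside the SD of 5.22 and 5.66 points, and by centred pileup it was 0.36 higher on the log2 scale. PCNA had 2 further regions, both in all 4 lists. The one 6700 bases after the start had percentiles of 63.8 and 79.2 with DMSO and 89.8 and 98.1 with I-BET151 (limma adjusted p = 0.12), and the one 6824 bases before the start had 88.2 and 89.2 and then 78.1 and 77.4 (limma adjusted p = 0.48). The ranges did not overlap at either region, in opposite directions.

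GINS2, part of the CMG helicase, had the largest positive change of this role, from 59.1 and 34.0 to 65.5 and 82.2, and RFC4, a subunit of the clamp loader, the next, from 24.0 and 61.6 to 66.3 and 60.5. Neither passed (limma adjusted p = 0.26 and 0.43), and the RFC4 ranges overlapped. By centred pileup GINS2 was 0.072 higher on the log2 scale, less than the 0.14 of the median promoter. At the other end were CDC7, the kinase that fires origins, from 65.7 and 58.6 to 50.9 and 48.1, and PRIM1, the primase subunit, from 74.4 and 27.3 to 52.8 and 34.9, where the DMSO libraries differed more from each other than from those with I-BET151. Neither passed (limma adjusted p = 0.63 and 0.83). CDC7 was higher by centred pileup (0.12 on the log2 scale), also by less than the median promoter. MCM10 and POLA1 stood above the 90th percentile in every library. RFC1, the large subunit of the clamp loader, had the lowest mean of the role, between 18.1 and 27.4 in the 4 libraries.

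Of the genes of nucleotide supply, TYMS, which encodes thymidylate synthase, had promoter percentiles of 68.4 and 80.4 with DMSO and 49.5 and 44.5 with I-BET151, without overlap and without passing (limma adjusted p = 0.24). By centred pileup TYMS was 0.059 higher on the log2 scale, less than the 0.14 of the median promoter. RRM1, the large subunit of ribonucleotide reductase, was 73.8 and 85.3 and then 87.3 and 79.7, with overlap. The small subunit gene RRM2 had a promoter region in 3 lists, with a fold of 2.75 in DMSO replicate 2, no call in DMSO replicate 1, and folds of 7.49 and 6.59 with I-BET151.

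The genes of G1 to S control had the lowest median promoter percentile of the 5 roles with DMSO. Their 8 promoters in all 4 lists had a median percentile of 50.0 with DMSO and 66.5 with I-BET151 and a median change of 6.70 points, and the other 4 genes, CCND1, CCND3, CDK6 and E2F2, had no promoter region in at least 1 list. E2F1, the transcription factor that switches on the S-phase genes, had the largest change of all members. Its promoter region at chr20:33685694-33686895 had folds of 3.41 and 3.65 with DMSO and 11.6 and 12.1 with I-BET151, from pileups of 30, 31, 44 and 81 reads. Its percentile rose from 8.32 and 21.3 (14.8 ± 9.16, SD, n = 2) to 81.0 and 71.8 (76.4 ± 6.47), by 61.6 points (limma adjusted p = 0.021). It thus went from the lower end of the shared regions to their upper part, and the ranges were far apart. CCNE1, which encodes the CDK2 partner cyclin E1, had percentiles of 47.9 and 41.0 and then 94.2 and 79.8. This change of 42.6 points did not pass (limma adjusted p = 0.060) though the ranges did not overlap. By centred pileup CCNE1 was 0.044 higher on the log2 scale (limma adjusted p = 0.92), less than the 0.14 of the median promoter. Ranked by −log10 p in place of fold it differed by 15.8 points (limma adjusted p = 0.50).

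The other E2F and kinase genes of this role varied in direction, and none of those tested passed. CDK2, the kinase partner of cyclin E, had percentiles of 59.6 and 51.4 with DMSO and 67.6 and 66.6 with I-BET151, higher without overlap (limma adjusted p = 0.65). Its centred pileup was 0.11 higher on the log2 scale, less than the 0.14 of the median promoter. E2F3 had percentiles of 88.9 and 91.6 with DMSO and 79.2 and 66.4 with I-BET151 (limma adjusted p = 0.28), although its centred pileup was 0.35 higher on the log2 scale. CDK4, a cyclin D partner, was 63.1 and 84.9 and then 70.6 and 29.9 (limma adjusted p = 0.35), so its lower mean rested on I-BET151 replicate 2. The centred pileup of CDK4 was 0.089 higher, again less than that of the median promoter. RB1, the brake on E2F, was low throughout, with 16.7 and 20.4 and then 33.5 and 38.7, without overlap and without passing (limma adjusted p = 0.39). CCND2, which encodes cyclin D2, was the lowest promoter of the list with I-BET151, at 14.3 and 3.80 with DMSO and 19.5 and 2.24 with I-BET151, and differed more between replicates than between conditions. E2F2 had a promoter region only in both I-BET151 lists (chr1:23531295-23531713, ending short of the start, folds 7.48 and 6.39), and CCND1, the cyclin D1 gene, likewise (chr11:69640970-69641360, folds 3.19 and 3.23). The CCND3 promoter, of cyclin D3, was called in all lists but DMSO replicate 2, with folds of 3.67, 6.63 and 7.15. That of CDK6 was called only in both replicate 2 lists, with folds of 3.18 and 3.44. In all, 3 of the 50 promoters were gained, that is called in both I-BET151 lists and neither DMSO list (6%), beside 10.9% of the promoter regions of all genes, and none was lost.

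The genes of G2 and mitosis had the highest median promoter percentile of the 5 roles under both conditions, 88.0 with DMSO and 86.3 with I-BET151. This holds for the rank by fold. Their median pileup was 44 and 41.5 reads with DMSO and 43.5 and 91 with I-BET151. That of the origin licensing genes was higher, at 45 and 47.5 and then 52.5 and 107.5. All 10 were in all 4 lists, the median change was -0.706 points, and 1 passed. PLK1, the kinase of mitotic entry, rose from 2.002 and 14.6 (8.30 ± 8.90, SD, n = 2) to 68.9 and 37.6 (53.3 ± 22.1), by 45.0 points (limma adjusted p = 0.043). Its folds at chr16:23678270-23679040 were 2.94 and 3.43 with DMSO and 10.2 and 9.01 with I-BET151. PLK1 was thus near the bottom of the shared regions with DMSO, and the I-BET151 libraries differed from each other by more than 30 points. MKI67, which encodes the proliferation marker Ki-67, had 39.2 and 67.1 and then 64.7 and 82.3, with overlap (limma adjusted p = 0.40). CDK1, the mitotic kinase, was 98.3 and 98.4 and then 93.0 and 97.0, and CCNA2, cyclin A2, was 96.4 and 93.3 and then 90.5 and 85.9. Both were lower without overlap and neither passed (limma adjusted p = 0.48 for each). By centred pileup both were higher, by 0.13 and 0.27, of which the value of CDK1 was just below the 0.14 of the median promoter. CCNB1, the CDK1 partner cyclin B1, stood between 95.03 and 99.2 in the 4 libraries.

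**Figure D3:**
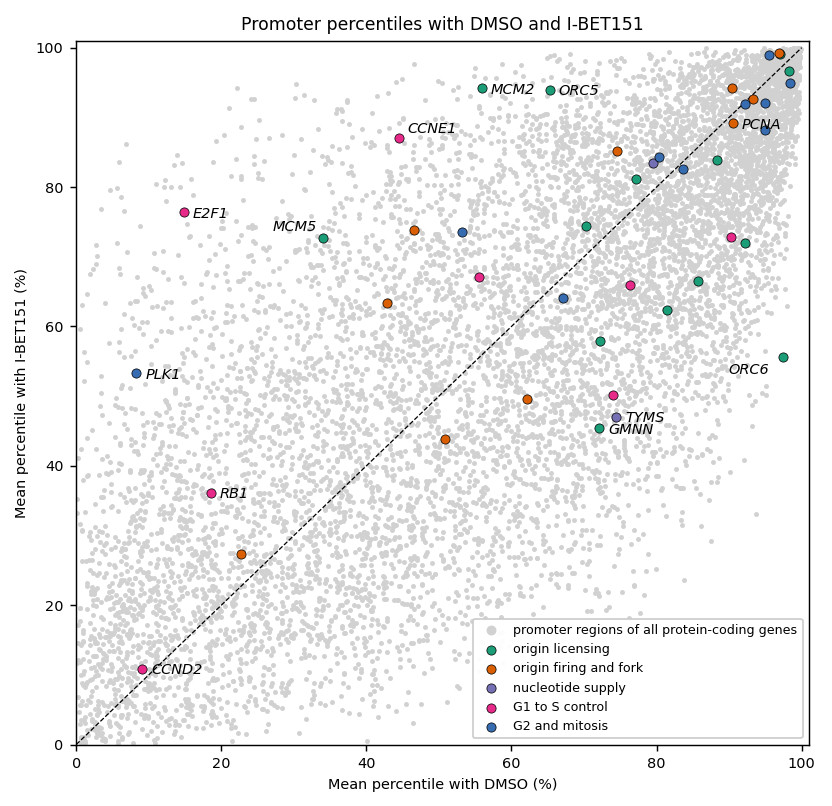
Mean percentile with I-BET151 (vertical axis, %) against mean percentile with DMSO (horizontal axis, %) for the 9324 promoter regions of all protein-coding genes called in all 4 lists (grey) and the 44 members (coloured by role), with the line of equality. Most members lie in the upper right, E2F1, PLK1, MCM5, CCNE1, MCM2 and ORC5 lie well above the line, and ORC6, GMNN and TYMS lie below it.

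The 4 calls rest on few libraries. Where 1 library was left out, the fit assumed that the lone library of a condition varies like the 2 of the other. Without DMSO replicate 1 none of the 4 passed, with limma adjusted p of 0.23 for E2F1, 0.41 for PLK1, 0.37 for MCM2 and 0.064 for ORC6. Without DMSO replicate 2 only PLK1 did (limma adjusted p = 0.042), with 0.052 for E2F1, 0.17 for MCM2 and 0.17 for ORC6. Without I-BET151 replicate 1, E2F1 and ORC6 passed (limma adjusted p = 0.026 and 0.020), but MCM2 and PLK1 did not (0.056 and 0.095). Without I-BET151 replicate 2 all 4 passed, and so did CCNE1, MCM5 and ORC5, upward. When regions were ranked by −log10 p in place of fold the changes were 45.8 points at E2F1, 40.7 at PLK1, 16.1 at MCM2 and -6.74 at ORC6. By centred pileup they were 0.45, 0.38, 0.27 and -0.27 on the log2 scale. The direction stayed with both measures and none passed (limma adjusted p between 0.14 and 0.51). The median centred change over the members' promoters was 0.25, so a positive sign was usual among them and MCM2 lay near that median.

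Away from the promoters the members had 151 regions, of which 20 were in all 4 lists. Over all 201 regions, 25 were gained and 5 were lost, that is called in both DMSO lists and neither I-BET151 list. These are 12.4% and 2.49%, beside 16.4% and 2.2% of the regions at all protein-coding loci. Regions called in 1 list only numbered 23 and 2 for DMSO replicates 1 and 2 and 10 and 49 for I-BET151 replicates 1 and 2. These are 11.4%, 0.995%, 4.98% and 24.4% of the members' regions, beside 17.1%, 1.11%, 9.01% and 21.7% at all protein-coding loci. With equally long lists 4 of the members' 107 regions were gained and 6 were lost (3.74% and 5.61%), beside 8.62% and 5.68% of the 42817 regions at all protein-coding loci. Gained regions thus still outnumbered lost ones over all loci at equal list length, and did not at the members. The members' counts of 4 and 6 are too few to carry a difference from all loci, and their lost share was near that of all loci.

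Of the 25 gained regions, 14 lay at CDK6 and RB1. Their loci of 242 and 306 kb held 51 of the 201 regions, and 27.5% of these 51 were gained. At the other 48 members 11 of 150 regions were gained (7.33%). CDK6 and RB1 were singled out for their gained regions, so the 2 shares are not an independent comparison. POLA1, the longest locus at 313 kb, held 9 regions with 2 gained, and CCND3, at 125 kb, held 13 with 0 gained. At CDK6 11 and 8 regions were called with DMSO and 15 and 25 with I-BET151. Of its 30 regions 9 were gained, 8 of them in introns, and 1 beyond the end of the gene was lost. The strongest, in intron 3 at chr7:92747087-92747652, lay 89.3 kb after the start, with folds of 10.2 and 10.3. At RB1 6 and 3 regions were called with DMSO and 11 and 16 with I-BET151, and 5 of 21 were gained. The strongest of all gained regions of the members lay there, in intron 17 at chr13:48413009-48413479, with folds of 12.02 and 11.2 from pileups of 30 and 40 reads. The promoter of CDK6, in contrast, was called in 1 list of each condition.

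CCND1 had a second gained region 1922 bases before its start (chr11:69638890-69639683, folds 4.48 and 6.09), so that both regions at and before the gene were called with I-BET151 only, whereas the region beyond its end was in all 4 lists at percentiles between 1.18 and 3.15. ORC4 and POLA1 gained 2 regions each and AURKA, GMNN and PLK1 1 each, all outside promoters. The 5 lost regions lay in intron 10 of CDC45, a CMG helicase component, in intron 13 of ORC3, in exon 7 of E2F2, and beyond the ends of CDK6 and PLK1. Their folds were weak, between 2.87 and 4.44 with DMSO, and with a −log10 p of at least 10 none remained. Of these genes E2F2, CDK6 and PLK1 also had gained regions.

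**Figure D4:**
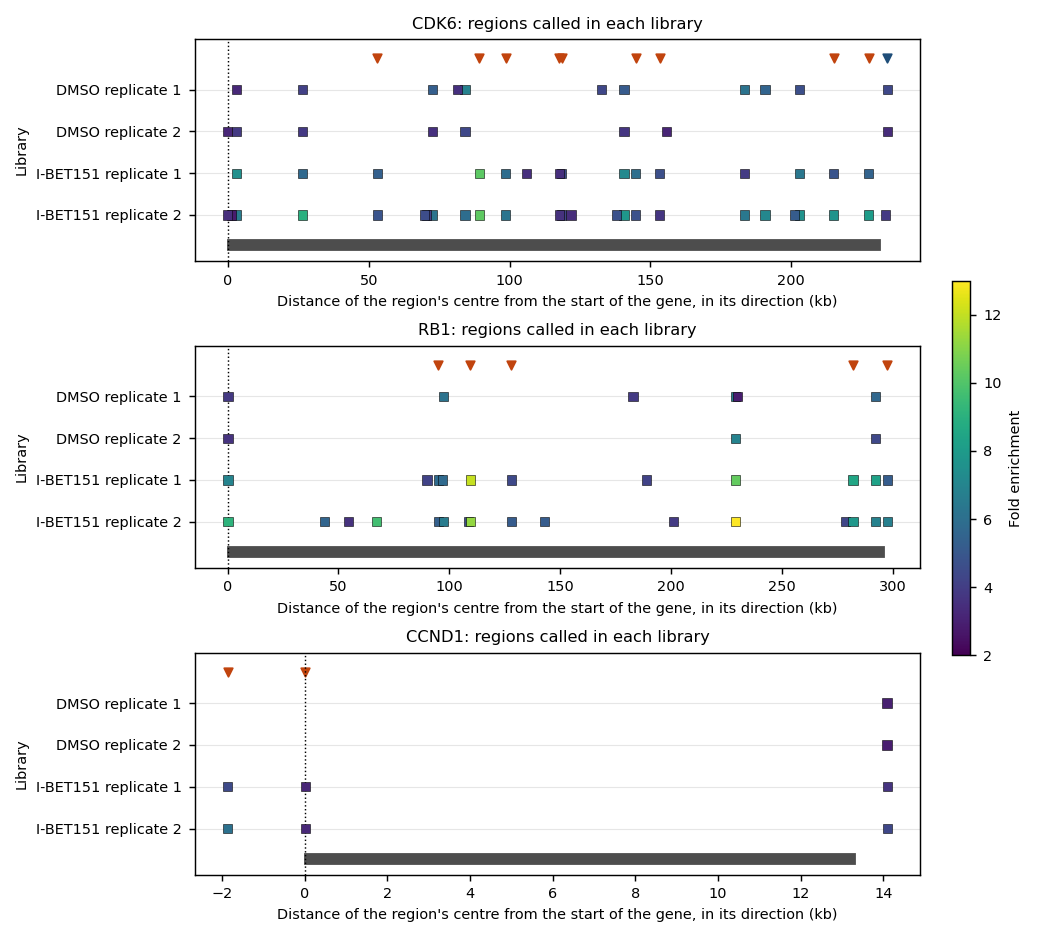
Regions called in each library (rows) at CDK6, RB1 and CCND1, by the distance of the region's centre from the gene start in the direction of transcription (kb), coloured by fold enrichment. Triangles mark gained (red) and lost (blue) regions and the dark bar is the gene. CDK6 had 9 gained regions and 1 lost, RB1 had 5 gained and CCND1 had 2, at and just before its start.

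Of 68 other genes of replication and mitosis that were not members, 62 had a promoter region in all 4 lists, with a median change of -1.66 points, 29 higher and 33 lower. The limma test called 2 of the 62 up and 0 down, beside 2.84% and 0.955% of all promoters, so the count up was near the background. The 2 were INCENP, a subunit of the chromosomal passenger complex with AURKB, and TFDP1, the DNA-binding partner of the E2F factors. INCENP rose from 52.9 and 64.6 to 98.3 and 97.2 (limma adjusted p = 0.019) and TFDP1 from 1.87 and 10.1 to 46.8 and 39.7 (limma adjusted p = 0.043). In both genes the I-BET151 libraries stood above those with DMSO. Pileups at INCENP were 41 and 39 reads with DMSO and 56 and 115 with I-BET151. Those at TFDP1 were 18 and 21 and then 24 and 36. Centred pileup, ranks by −log10 p and leaving out 1 library are not given for these genes. Another 4 of the 68 promoters were gained, beside 10.9% of the promoter regions of all genes. They were those of RECQL4, BIRC5, ESPL1 and E2F4, with folds between 5.58 and 12.5. LIN54 had a promoter region in both replicate 2 lists only, and RPA3 had none in any list.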

How the data were processed

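ATAC-seq of 4 libraries was analysed from the peak lists. Reads had been aligned by the authors with Bowtie2 2.2.5 to hg38, cleared of duplicates and of mitochondrial reads, and passed to MACS2 2.1.2, one library at a time and with no control. Per peak the deposited lists hold a display score (not used), the summit's fold enrichment (pileup over background, a ratio), and its p-value and q-value as −log10, each computed by the authors within 1 library. The lists reach down to a −log10 q of 1.30 to 1.33 and a −log10 p of 2.95 to 3.39. The study's methods state a p-value threshold equal to a −log10 p of 5 and a fixed extension of 200 bp, so the deposited lists differ from the stated call. Peaks were no shorter than 200 bp in the replicate 1 lists but than 233 bp (DMSO) and 256 bp (I-BET151) in those of replicate 2, so the read extension differed between replicates.

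Here, overlapping peaks (1 bp or more, chromosomes 1 to 22, X and Y) were joined into 164301 regions (Python 3.11.15, pandas 2.3.3). The pileup was solved from the fold and the p-value, which it fitted in 100% of peaks, and the depth was taken from the modal background with the MACS2 genome size of 2.7e+09. Limma 3.58.1 (lmFit and eBayes, R 4.3.3) was run on normal scores of the ranks by fold, 2 against 2 libraries without covariates, and was tested on simulated data. An exact permutation test of single values could not go below p = 0.33. Groups and replicate numbers came from the sample labels. Pileups are reads without molecular identifiers, whose counting error is not in the SD of 2 libraries.

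The members and lists were chosen with earlier results of these data known. Named with values were members whose promoter was not in all 4 lists, those that passed limma, in each role the 2 with the largest positive and the 2 with the largest negative change, those with 3 or more gained or any lost regions, PCNA, and other pathway genes that passed. ORC5, CDK2, CCNB1, MCM3, MCM4, MCM6, MCM7, MCM10, POLA1, RFC1, CCND2, ORC4, AURKA and the genes beside the CHR stretches were singled out after their values were seen. Alternatives were 2 stricter thresholds, equally long lists, a larger overlap, ranks by −log10 p, pileup per M reads, other spans of a locus, the replicate number as a block and leaving out each library. A pileup without centring and a block with crossed numbers were added after seeing the data.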

Additional observations from a re-analysis of the deposited data

How the results depend on the processing

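The main values were 3 member regions up and 1 down, 25 gained, 5 lost and a median promoter change of 0.747 points. A −log10 p of at least 5 and an overlap of at least 50% changed none of these by over 1.5 times. Ranks by −log10 p gave 0 up and 0 down, as did centred pileup, and at an unadjusted p under 0.05 limma called 4659 and 6783 of all 25627 regions under these settings, beside 6372 in the main one. Pileup without centring gave 64 up and 0 down, which carries the shift common to all regions. A −log10 p of at least 10, with 13209 regions tested, gave 4 up, 2 down, 16 gained and 0 lost. The 4 up were CCNE1, MCM2, ORC5 and a region of PCNA outside its promoter. Down were ORC6 and a region of E2F3 outside its promoter. The E2F3 promoter itself did not pass in this setting (limma adjusted p = 0.23). Equally long lists gave 0 up, 1 down (ORC6, limma adjusted p = 0.043), 4 gained, 6 lost and a median of -1.73. In both settings the promoters of E2F1 and PLK1 were no longer in all 4 lists and were not tested. Promoters alone held 3 gained and 0 lost regions, and loci reaching 50 kb to each side held 6 up, 78 gained and 18 lost. Percentiles among all regions of a list gave a median of 3.06. Leaving out 1 library gave 0 to 6 up, 0 to 2 down, 29 to 74 gained, 5 to 28 lost and a median of -1.34 to 2.29. The most gained came without I-BET151 replicate 1 and the most lost without DMSO replicate 2. Beyond what is said here, the cause was not tested. Same-numbered libraries deviated weakly in opposite directions (r = -0.17 over the 25627 regions). This cannot decide whether they came from the same culture or day, and the labels do not say. The replicate block gave 3 up and 1 down, changing no call, and crossed numbers 5 up and 2 down. The members' gained regions had pileups of 6 to 55 reads, and no setting brought the libraries to 1 depth.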
